A study of Mus musculus with 6 samples.

Results

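The genes described here are the fibroblast growth factors and the proteins that receive, hold or restrain their signal. They were chosen by symbol: every gene on the array named Fgf with a number, the receptors Fgfr1 to Fgfr4 and Fgfrl1, the binding proteins Fgfbp1 and Fgfbp3, the co-receptors Kl and Klb, and the feedback inhibitors Spry1, Spry2 and Spry4. These are 34 genes of 19938 measured, each read from 1 row of the array table. The comparison is between 3 arrays of Scf-GFP+ cells and 3 arrays of whole bone marrow cells, on Affymetrix Mouse Gene ST 1.0 arrays. Scf-GFP+ cells carry a green fluorescent protein knocked into 1 copy of the stem cell factor gene (Kitl) and came from heterozygous knock-in mice. Whole marrow came from wild-type mice. All mice were young adults of a C57BL/6 background. Each array had RNA of 5000 sorted cells, the Scf-GFP+ cells sorted in duplicate passes, so population, genotype and sorting differ together between the groups. The labels speak of independent aliquots and name no separate animals, so every p-value rests on the variation among these samples alone, and that may be technical in part. Xist, described with Fgf11, was high in 2 of the 3 Scf-GFP+ arrays and low in the other and in whole marrow. The 3 Scf-GFP+ arrays were thus not all drawn from a common pool of cells, and the groups also differ in part by Xist.

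Fibroblast growth factors are mostly secreted proteins that bind heparan sulphate and a receptor tyrosine kinase on a nearby cell. The receptor passes the signal through docking proteins to the Ras and MAP kinase pathway, which in turn switches on its own inhibitors, the Sprouty proteins. The receptors exist in splice forms called IIIb and IIIc that bind different ligands. Fgf7, the keratinocyte growth factor, is made by mesenchymal cells in many tissues and binds the IIIb form of Fgfr2, which is typical of epithelial cells, while mesenchymal cells usually make the IIIc form. The values used here sum up a whole gene and do not separate these forms. Endocrine members such as Fgf23 act at a distance with Klotho as co-receptor, and the Fgf11 group stays inside the cell.

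Few members of the family set Scf-GFP+ cells apart, but the differences of Fgf7 and Fgfr2 were large. Of the 34 genes, 5 were called higher in Scf-GFP+ cells, namely Fgf7, Fgfr2, Fgfr1, Spry1 and Fgf11, and none was called lower. A call means that a gene differed by 2-fold or more with a limma adjusted p below 0.05 over all genes. Over all 19938 genes, 9.01% were called higher and 7.89% lower, against 14.7% and 0% of the family. The 29 genes not called had a median difference of -0.07 on the log2 scale, and the median over all genes was -0.08. Limma gave an unadjusted p below 0.05 for 4 members that were lower in Scf-GFP+ cells (Fgf5, Fgf10, Fgf15 and Kl) and none of them passed after adjustment. Over all genes, 19.6% were lower at that unadjusted level. Without regard to size, 8 members passed the adjusted threshold as higher, where 13.8% of all genes did, and none as lower, where 13.2% did.

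**Figure D1:**
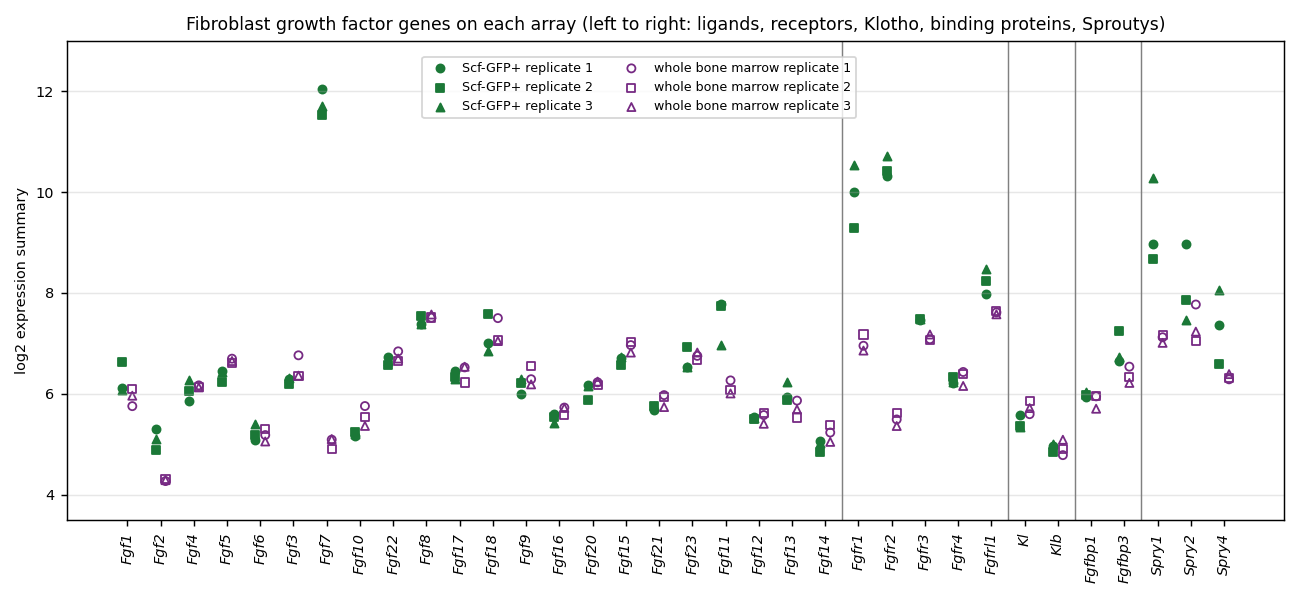
Log2 expression summary (vertical axis) of each of the 34 genes on each of the 6 arrays, filled symbols for Scf-GFP+ cells and open symbols for whole bone marrow. Fgf7 and Fgfr2 stand far apart between the groups, with values from 10.31 to 12.04 in Scf-GFP+ cells and from 4.91 to 5.61 in whole marrow, whereas most other ligands lie together.

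To show the sequence ahead of the annotated start, the 250 bases before the RefSeq transcript start are printed. This was done for the 4 called genes that had an entry (build GRCm38.p6, Fgfr1 is named only). Whether these starts are used in either population was not tested. Capitals mark CG dinucleotides, the sites of DNA methylation, and each sequence runs 5′ to 3′ on the gene's own strand. Fgf7 (chr2:126034408-126034657, plus strand), Fgfr2 (chr7:130266809-130267058, minus strand), Spry1 (chr3:37639697-37639946, plus strand) and Fgf11 (chr11:69802281-69802530, minus strand) read as follows.
Fgf7: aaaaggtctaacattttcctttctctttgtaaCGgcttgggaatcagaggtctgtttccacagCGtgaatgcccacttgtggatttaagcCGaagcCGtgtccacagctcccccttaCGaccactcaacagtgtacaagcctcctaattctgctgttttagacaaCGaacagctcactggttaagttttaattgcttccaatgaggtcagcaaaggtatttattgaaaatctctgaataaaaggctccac
Fgfr2: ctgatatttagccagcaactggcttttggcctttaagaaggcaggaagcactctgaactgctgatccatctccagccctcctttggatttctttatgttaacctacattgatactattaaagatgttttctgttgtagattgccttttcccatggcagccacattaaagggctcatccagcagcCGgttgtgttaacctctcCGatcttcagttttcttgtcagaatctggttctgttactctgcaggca
Spry1: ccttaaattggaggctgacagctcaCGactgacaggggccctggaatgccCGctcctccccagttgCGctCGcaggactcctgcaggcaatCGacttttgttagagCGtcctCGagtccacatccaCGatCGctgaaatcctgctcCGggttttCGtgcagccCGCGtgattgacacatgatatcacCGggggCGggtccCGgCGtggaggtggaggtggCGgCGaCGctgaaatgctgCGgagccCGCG
Fgf11: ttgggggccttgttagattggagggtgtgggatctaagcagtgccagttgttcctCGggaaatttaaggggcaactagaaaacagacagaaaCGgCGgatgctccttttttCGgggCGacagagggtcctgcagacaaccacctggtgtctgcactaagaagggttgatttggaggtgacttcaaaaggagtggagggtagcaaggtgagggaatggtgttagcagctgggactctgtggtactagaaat

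The window of Fgfr2 held 2 CG dinucleotides, that of Fgf11 held 5, that of Fgf7 held 6 and that of Spry1 held 23, where the median over 32851 such windows of all genes was 6. G or C made up 43.6% of the window of Fgf7, 44.0% of that of Fgfr2 and 62.4% of that of Spry1, with a median of 52.4% over all windows. Of the pair with the largest differences, Fgfr2 thus lay below the median in CG dinucleotides and Fgf7 at it. These core motifs were searched on both strands, with overlaps allowed: CCCNNGGG of the early B cell factors, TGTGGT of the RUNX factors, TGANTCA of AP-1 and the TATAAA box. In the windows of the called genes the only match was TGTGGT in that of Fgf11, beginning 15 bases before the start. Over all windows, CCCNNGGG was found in 11.8%, TGTGGT in 14.0%, TGANTCA in 6.75% and TATAAA in 12.4%. A match or its lack describes these letters in these windows only.

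Among the ligands, Fgf7 was the one with a large difference. Fgf7 measured 12.04, 11.53 and 11.71 in Scf-GFP+ cells (replicates 1, 2 and 3 in order, here and throughout) and 5.09, 4.91 and 5.10 in whole marrow (log2 values). The groups did not overlap, and the gap was many times the spread within either. The log2 difference was 6.73 ± 0.15 SE (n = 3 arrays per group, 106-fold, limma adjusted p = 2.1e-06). All 3 whole marrow values lay below the lowest first quartile of any array (5.19), where arrays resolve poorly, so the fold is approximate. Fam227b, the gene that overlaps Fgf7 on the RefSeq map, measured between 3.93 and 4.14 on all 6 arrays and differed by -0.09 ± 0.10 SE.

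The closest relatives of Fgf7 did not move with it. Fgf10, which like Fgf7 signals through the IIIb form of Fgfr2, measured 5.16, 5.24 and 5.21 in Scf-GFP+ cells and 5.76, 5.54 and 5.36 in whole marrow. Its arrays were all slightly lower in Scf-GFP+ cells, and the difference of -0.35 ± 0.13 SE did not pass limma's test (adjusted p = 0.0925). The other two relatives, Fgf22 and Fgf3, differed by -0.08 and -0.22 and were not called.

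Fgf2, basic fibroblast growth factor, was the other secreted ligand with a difference that passed the p threshold, though not the 2-fold one. Fgf2 measured 5.31, 4.89 and 5.11 in Scf-GFP+ cells and 4.27, 4.32 and 4.29 in whole marrow, with no overlap. The log2 difference was 0.81 ± 0.13 SE (1.75-fold, limma adjusted p = 0.00438). Both means were under the first quartile of each array. Nudt6, which overlaps the Fgf2 gene, differed by 0.46 ± 0.22 SE, and Fgf1, the acidic relative of Fgf2, by 0.34 ± 0.18 SE, and neither was called.

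The remaining secreted ligands showed little difference. Beside Fgf7 and Fgf2 there were 16, from Fgf1 to the endocrine Fgf15, Fgf21 and Fgf23, with differences from -0.35 (Fgf10) to 0.34 (Fgf1) and a median of -0.12. None was called in either direction. Fgf18, an osteogenic and chondrogenic ligand, measured 7.01, 7.58 and 6.85 in Scf-GFP+ cells and 7.50, 7.07 and 7.05 in whole marrow, so the groups overlapped fully. Fgf23, the phosphate-regulating hormone of osteocytes, measured 6.53, 6.93 and 6.53 against 6.75, 6.68 and 6.82. Fgf9, Fgf16 and Fgf20, a group of heparin-bound paracrine factors, differed by -0.17, -0.16 and -0.14.

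The 4 intracellular homologues differed among themselves. Fgf11 measured 7.78, 7.73 and 6.97 in Scf-GFP+ cells and 6.27, 6.08 and 6.01 in whole marrow. All Scf-GFP+ arrays were above all marrow arrays, with replicate 3 the lowest of them. The log2 difference was 1.38 ± 0.23 SE (2.60-fold, limma adjusted p = 0.00522). Fgf13 differed by 0.32 ± 0.15 SE without overlap, and Fgf12 and Fgf14 by -0.01 and -0.24, and none of the 3 was called.

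Fgf11 is the call that a split between the arrays touched. Xist, the RNA of X inactivation, was at 11.50 in Scf-GFP+ replicate 1, at 11.81 in replicate 2 and at most 5.10 elsewhere. Fitted with a term for this split, which leaves Scf-GFP+ replicate 3 alone against whole marrow and assumes that it varies like the other arrays, Fgf11 differed by 0.85 (limma adjusted p = 0.0208) and fell short of 2-fold. Over all 16 alternatives its adjusted p ran from 0.000581 to 0.0249. The endothelial markers Cdh5, a cadherin of vessel walls, and Emcn, endomucin, were also lowest in Scf-GFP+ replicate 3 among those arrays. Cdh5 was at 7.54, 8.09 and 6.55 and Emcn at 7.50, 7.68 and 7.02. Ramp2, the other endothelial marker called higher, was at 9.86, 10.44 and 9.93 and so lowest in replicate 1. Of the 10 endothelial markers measured, 3 were called higher and 1 lower, and their mean log2 level was 7.27, 7.14 and 6.69 in the Scf-GFP+ arrays and 6.21 to 6.35 in whole marrow. Their part in the value of Fgf11 was not tested.

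Fgfr2 and Fgfr1 were the receptors called higher in Scf-GFP+ cells. Fgfr2 measured 10.31, 10.42 and 10.72 in Scf-GFP+ cells and 5.49, 5.61 and 5.36 in whole marrow. The arrays of each group lay close together and far from the other group. The log2 difference was 4.99 ± 0.14 SE (31.9-fold, n = 3 arrays per group, limma adjusted p = 3.18e-06).

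Fgfr1, the receptor most mesenchymal cells use, measured 10.00, 9.29 and 10.54 in Scf-GFP+ cells and 6.95, 7.18 and 6.86 in whole marrow. The Scf-GFP+ arrays spread over more than 1 log2 unit but did not reach the marrow arrays. The log2 difference was 2.95 ± 0.31 SE (7.71-fold, limma adjusted p = 0.000595). Its SD of 0.63 in Scf-GFP+ cells was above that of 95.4% of all genes, whereas that of Fgfr2 was 0.21 (61.5%).

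The other receptors differed little. Fgfr3, a receptor known from the growth plate, measured 7.46, 7.48 and 7.48 in Scf-GFP+ cells and 7.08, 7.07 and 7.18 in whole marrow. This difference of 0.36 ± 0.09 SE (limma adjusted p = 0.0301) was well short of 2-fold. Fgfrl1, which binds ligands but has no kinase domain, measured 7.97, 8.24 and 8.48 against 7.61, 7.64 and 7.58, a difference of 0.62 ± 0.15 SE (limma adjusted p = 0.0205). The adjusted p of Fgfr3 rose to as much as 0.161 and that of Fgfrl1 to 0.0666 over the alternatives. Fgfr4, a receptor of liver and muscle precursors, measured 6.21 to 6.33 in Scf-GFP+ cells and 6.16 to 6.43 in whole marrow, and the groups overlapped.

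Co-receptors and binding proteins were not called. Kl, the Klotho co-receptor of Fgf23, measured 5.58, 5.36 and 5.35 in Scf-GFP+ cells and 5.60, 5.85 and 5.72 in whole marrow (difference -0.29 ± 0.12 SE, limma adjusted p = 0.132). Klb, the co-receptor of Fgf15 and Fgf21, differed by 0.02 ± 0.12 SE, with both means under the first quartile of each array. Fgfbp3, a secreted protein that carries ligands off the matrix, measured 6.65, 7.24 and 6.73 against 6.54, 6.33 and 6.22, without overlap. Its difference of 0.51 ± 0.19 SE did not pass (limma adjusted p = 0.0912), and its relative Fgfbp1 differed by 0.11 ± 0.11 SE.

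**Figure D2:**
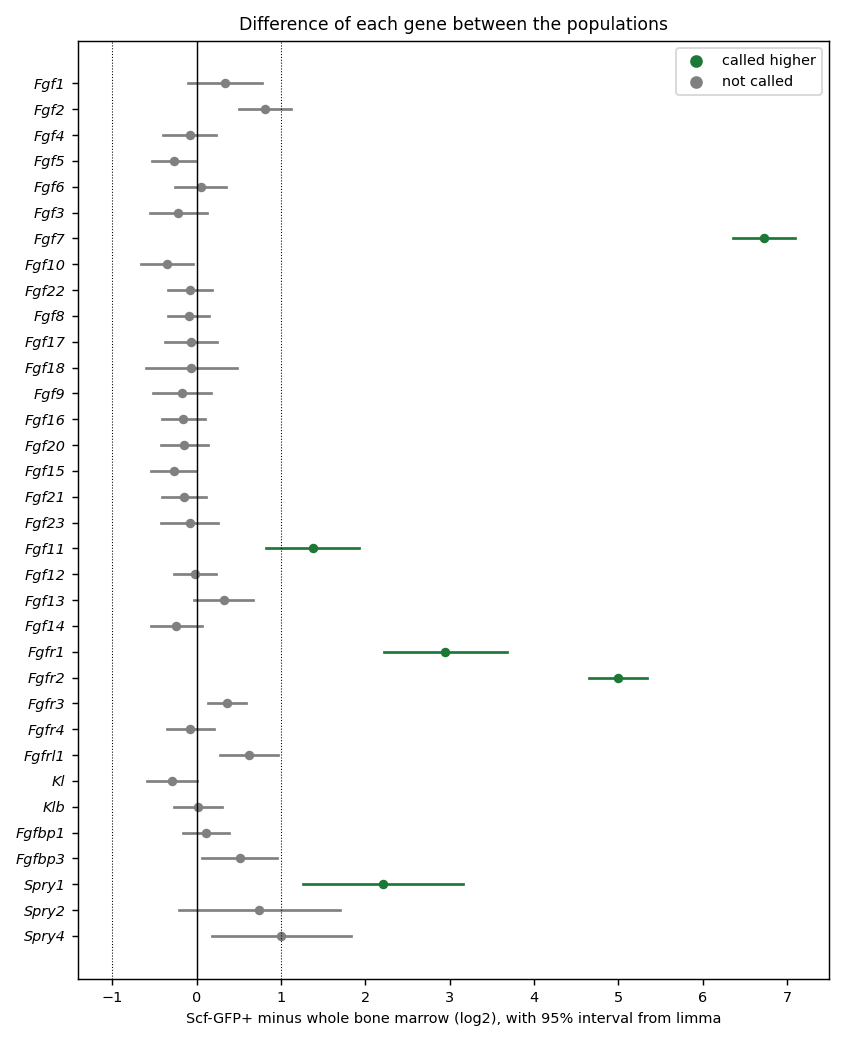
Difference of each gene between Scf-GFP+ cells and whole bone marrow on the log2 scale (horizontal axis), with limma's 95% interval as a bar; dotted lines mark 2-fold in either direction. The 5 called genes are green, and of the 29 others 26 have an interval that lies within 2-fold either way.

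Of the Sprouty genes, which are switched on by receptor signalling and restrain it, 1 was called. Spry1 measured 8.97, 8.67 and 10.28 in Scf-GFP+ cells and 7.12, 7.17 and 7.01 in whole marrow. The groups did not overlap, and replicate 3 stood above the other Scf-GFP+ arrays. The log2 difference was 2.21 ± 0.40 SE (4.63-fold, limma adjusted p = 0.00703), and it was 1.72 without that array and 3.18 with the term for the Xist split, which sets that array alone against whole marrow.

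Spry4 measured 7.37, 6.59 and 8.05 in Scf-GFP+ cells and 6.29, 6.32 and 6.39 in whole marrow. The groups did not overlap, but the Scf-GFP+ arrays ranged widely and replicate 2 came near the marrow arrays. The difference of 1.00 ± 0.34 SE did not pass (limma adjusted p = 0.0770). Without Scf-GFP+ replicate 2 it was 1.38 and was called (limma adjusted p = 0.00787), and without Scf-GFP+ replicate 3 it was 0.64 (limma adjusted p = 0.118). With the term for the Xist split, where replicate 3, its highest array, stands alone against whole marrow, it was 1.72 (limma adjusted p = 0.0147). Over the alternatives the adjusted p ran from 0.00787 to 0.175.

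Spry2 measured 8.97, 7.86 and 7.47 in Scf-GFP+ cells and 7.77, 7.05 and 7.23 in whole marrow, and the groups overlapped. Its difference was 0.74 ± 0.40 SE (limma adjusted p = 0.227), and it was 0.31 without Scf-GFP+ replicate 1 and 0.11 with the term for the Xist split. That array also stood out in neutrophil genes: the mean log2 level of 10 neutrophil markers was 9.23 there, 5.98 and 6.21 in Scf-GFP+ replicates 2 and 3 and 11.96 to 12.03 in whole marrow. The part of such cells in the value of Spry2 was not tested. Of the 5 called genes, Fgf7 and Fgf11 were highest in replicate 1 and the other 3 in replicate 3.

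**Figure D3:**
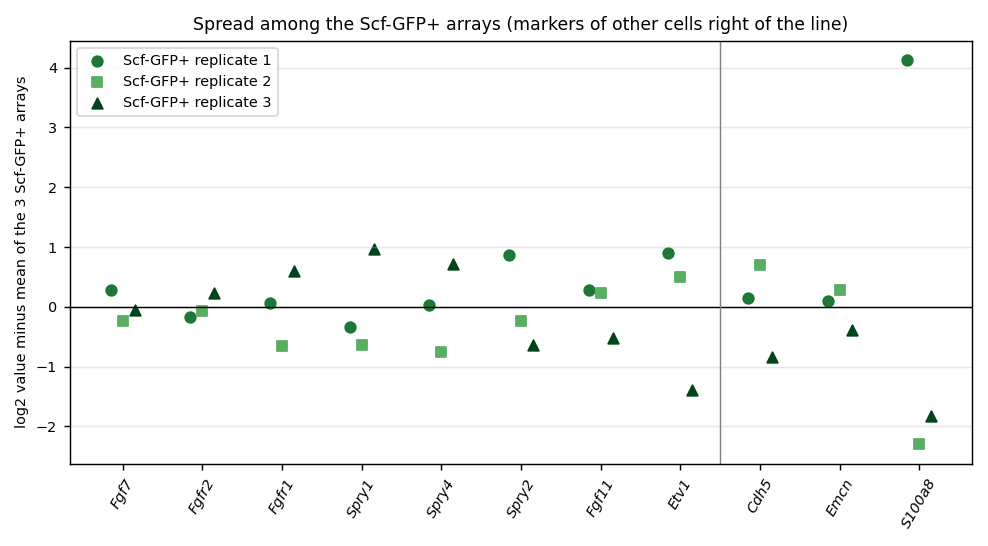
Log2 value of each Scf-GFP+ array minus the mean of the 3 Scf-GFP+ arrays (vertical axis) for 7 genes of the family, the target gene Etv1, and markers of other cells to the right of the line. Fgfr1, Spry1 and Spry4 were highest in replicate 3. Fgf11 and Etv1 were lowest there, as were the endothelial markers Cdh5 and Emcn. Spry2 was highest in replicate 1, where the neutrophil gene S100a8 also stood far above the others. The endothelial marker Ramp2, lowest in replicate 1, is not drawn.

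The groups did not overlap for 17 of the 34 genes. Scf-GFP+ cells were above in 11 of them (32.4%, where 19.0% of all genes were above) and below in 6 (17.6%, where 26.4% of all genes were below). The 11 were the 5 called genes with Fgf2, Fgf13, Fgfr3, Fgfrl1, Fgfbp3 and Spry4. Receptors made up 4 of the 11, out of 5 receptor genes, and ligands also 4, out of 22.

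Around the receptors, 73 further genes from 4 lists were measured, and 23 of them (31.5%) were called higher and 4 (5.48%) lower, where 9.01% of all genes were called higher and 7.89% lower. The lists and the counts are descriptions, and no list was tested as a set.

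The docking proteins and kinases that carry the signal inward were mixed. Of 24 listed, 18 were measured; calls went to 3 genes on the higher and 1 on the lower side, and the median difference was 0.08. Gab1, a docking protein that recruits phosphatidylinositol 3-kinase, measured 9.18, 9.38 and 9.68 in Scf-GFP+ cells and 7.74, 6.89 and 7.48 in whole marrow (2.04 ± 0.24 SE, limma adjusted p = 0.00115). Plcg1, the phospholipase that binds activated receptors, was higher by 1.55 ± 0.28 SE and Pik3r1, the regulatory subunit of phosphatidylinositol 3-kinase, by 1.21 ± 0.19 SE. Grb2, the adaptor between docking proteins and Ras activation, was lower, at 8.12, 8.07 and 8.29 against 9.33, 9.32 and 9.15 (-1.11 ± 0.11 SE, limma adjusted p = 0.000580). It fell just short of 2-fold with the term for the Xist split (-0.98, limma adjusted p = 0.0102). Braf, a kinase of the MAP kinase pathway, differed by 0.98 ± 0.19 SE, just under 2-fold, and was called in 4 of 16 alternatives. Without regard to size, 6 of the 18 passed the adjusted threshold as higher and 3 as lower, where 13.8% and 13.2% of all genes did. Besides those named, these were Stat3 (0.68 ± 0.11 SE) and Pik3ca (0.60 ± 0.17 SE) as higher. On the lower side they were Map2k1 (-0.75 ± 0.15 SE) and Cbl (-0.80 ± 0.18 SE).

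Among further feedback inhibitors and target genes, 6 of 18 passed as higher and 2 as lower, and the median difference was 0.34. Il17rd, the membrane inhibitor also called Sef, led them. Its brighter row measured 9.24, 9.49 and 9.49 in Scf-GFP+ cells and 5.22, 4.92 and 5.57 in whole marrow, and so differed by 4.17 ± 0.18 SE (limma adjusted p = 1.44e-05). A second row for the same gene gave 1.03, so the direction was shared and the size was not settled. Spred1, a Sprouty-related inhibitor of Ras signalling, was higher by 1.78 ± 0.18 SE and Rasa1, a Ras GTPase-activating protein, by 1.34 ± 0.14 SE.

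The calls of Etv1, Etv5, Spred2 and Egr1 did not hold in every fit that left out a single array. Etv1 measured 9.0, 8.60 and 6.72 in Scf-GFP+ cells and 6.04, 5.99 and 5.88 in whole marrow. Replicate 3 again lay nearest to the marrow arrays, as for Fgf11. Its difference of 2.14 ± 0.56 SE (limma adjusted p = 0.0304) was no longer called when any array but Scf-GFP+ replicate 3 was left out. The limma adjusted p was then 0.0754 and 0.0910 for Scf-GFP+ replicates 1 and 2, and 0.0809, 0.0790 and 0.0917 for the marrow arrays. With each of the arrays left out in turn, Etv1 still differed by 1.69 to 2.83. With the term for the Xist split Etv1 differed by 0.75 (limma adjusted p = 0.0604). Etv5 differed by 1.80 ± 0.44 SE (limma adjusted p = 0.0235), but lost the call without whole marrow replicate 1 (limma adjusted p = 0.0686) or 3 (limma adjusted p = 0.0530) and with the term for the Xist split (limma adjusted p = 0.196), and its second row gave 0.34. Spred2, at 1.04 ± 0.26 SE (limma adjusted p = 0.0264), lost the call in 8 of 16 alternatives. These included leaving out any one of the Scf-GFP+ arrays (0.0753, 0.0722 and 0.0572 as limma adjusted p), leaving out whole marrow replicate 3 (limma adjusted p = 0.0773), and leaving out whole marrow replicate 1, where it differed by 0.77. Over all alternatives the adjusted p ran from 0.000161 to 0.0917 for Etv1, from 0.00610 to 0.344 for Etv5 and from 0.00264 to 0.185 for Spred2. Etv4 and Dusp6, widely used readouts of receptor signalling, differed by -0.21 ± 0.15 SE and 0.09 ± 0.26 SE and were not called. The immediate early genes Fos and Egr1 were lower, at -1.93 ± 0.23 SE and -1.02 ± 0.21 SE. Fos was called in all 16 alternatives (limma adjusted p from 0.000675 to 0.0135). Egr1 fell short of 2-fold without Scf-GFP+ replicate 2 (-0.79) or whole marrow replicate 2 or 3 (-0.97 and -1.0), and it was not called with the term for the Xist split (-0.68, limma adjusted p = 0.149).

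Genes of heparan sulphate, the sugar chain that ligands need to bind their receptors, were high in part. Of 27 listed, 26 were measured; 8 passed as higher and 1 as lower, and the median difference was 0.38. Sdc2, a membrane proteoglycan, measured 10.82, 10.82 and 11.10 in Scf-GFP+ cells and 5.60, 4.40 and 4.72 in whole marrow (6.01 ± 0.30 SE, limma adjusted p = 2.35e-05). Its marrow mean of 4.90 lay below the lowest first quartile, so the size of this difference is approximate, as for Fgf7. Sulf1, which removes sulphate groups from the chain outside the cell, was higher by 4.53 ± 0.12 SE, while its relative Sulf2 differed by -0.76 ± 0.15 SE and was not called. The glypicans Gpc6 and Gpc4 were higher by 2.79 ± 0.36 SE and 2.48 ± 0.21 SE, and Sdc1 by 1.62 ± 0.29 SE. The chain-building enzymes Ext1, Extl3 and Ext2 were higher by 1.38 ± 0.13 SE, 1.31 ± 0.22 SE and 1.26 ± 0.28 SE, the last not called without whole marrow replicate 1 (limma adjusted p = 0.0556) or Scf-GFP+ replicate 3 (0.98). Hpse, heparanase, which cuts the chain, was lower (-2.18 ± 0.37 SE). Its Scf-GFP+ mean of 4.75 lay below the lowest first quartile, so that size is approximate too. Hs6st1, which adds sulphate at the 6-O position, differed by -1.0 ± 0.18 SE, just under 2-fold, and was called lower in 6 of 16 alternatives.

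Of 11 genes listed as membrane partners of the receptors, 6 passed as higher and none as lower, and the median difference was 1.07. Limma gave 1 of them, L1cam, an unadjusted p below 0.05 on the lower side (-1.17 ± 0.44 SE, limma adjusted p = 0.103). Flrt1, Flrt3, Itgb3 and Epha4 differed by -0.06, -0.01, -0.40 and 0.06 and were not called either. Cdh2, N-cadherin, which binds Fgfr1, measured 10.45, 10.75 and 10.81 in Scf-GFP+ cells and 6.07, 5.72 and 5.94 in whole marrow (4.76 ± 0.15 SE, limma adjusted p = 3.99e-06). Flrt2, a leucine-rich repeat membrane protein, was higher by 2.89 ± 0.25 SE, the integrin subunit Itgav by 2.45 ± 0.17 SE, the neural cell adhesion molecule Ncam1 by 2.09 ± 0.13 SE and Nptn by 1.92 ± 0.13 SE. Efna1, a membrane-bound ephrin, at 1.07 ± 0.26 SE, was not called once Scf-GFP+ replicate 1 (0.84) or 3 (limma adjusted p = 0.0595) was left out, nor without marrow replicate 1 (limma adjusted p = 0.0597) or 2 (limma adjusted p = 0.0717). The term for the Xist split ended its call too (limma adjusted p = 0.126), and over all alternatives the adjusted p of Efna1 ran from 0.00615 to 0.126.

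**Figure D4:**
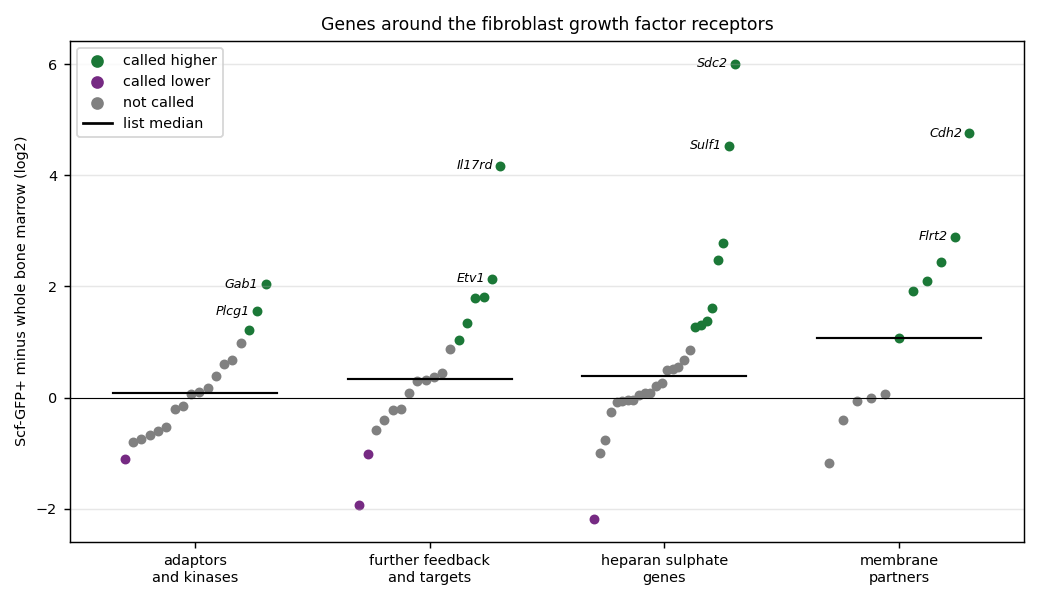
Difference between Scf-GFP+ cells and whole bone marrow on the log2 scale (vertical axis) for the measured genes of 4 lists, 1 point per gene, with the list median as a line. Sdc2, Cdh2, Sulf1 and Il17rd lie highest, between 4.17 and 6.01, and the medians of the lists run from 0.08 to 1.07.

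The labelled populations carried their markers. All 10 markers of stem cell factor-expressing stroma were called higher in Scf-GFP+ cells, with Kitl, the sorted gene, higher by 5.57 (marrow mean 4.84, below the lowest first quartile, so that size is approximate). Of 6 osteoblast markers measured, 5 were also called higher, among them Ibsp, bone sialoprotein (7.05), and Phex (5.76, also approximate with a marrow mean of 4.37). Col1a1 differed by 0.28 ± 0.10 SE and was not called. The mean log2 level of the 6 markers was 9.53 to 9.74 in Scf-GFP+ cells and 6.10 to 6.22 in whole marrow. The part of such cells in the values of the family was not tested. All 7 measured erythroid and 8 measured B cell markers were called lower. So were 8 of 10 neutrophil, 3 of 9 macrophage, 2 of 7 T and NK cell and 1 of 5 megakaryocyte markers. The 1 macrophage marker called higher was Vcam1, which is also among the 10 stroma markers. None of 6 epithelial markers was called, and their mean log2 level was 5.78 to 5.86 in Scf-GFP+ cells and 6.03 to 6.35 in whole marrow. Whole marrow is a mixture, so less RNA of a gene per cell and fewer cells that make it cannot be told apart in its values. Array medians lay between 6.56 and 6.63.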

How the data were processed

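The authors deposited the 6 arrays as 1 table of log2 values. Per the submitters' processing notes RMA, affy and limma were used, with no version stated; the annotation's build is not given in the sources used here. No further normalization was applied. RMA gives no detection call, and levels of different genes are not comparable. Of 28940 rows, 21789 had 1 gene symbol, 1621 several and 5530 none. Symbols were updated by Entrez identifier through RefSeq (GRCm38.p6), and 91 not found were kept. The row with the highest mean stood for each of 999 genes with several rows, which left 19938 genes.

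The comparison used lmFit and eBayes of limma 3.58.1 in R 4.3.3 without covariates, with Benjamini-Hochberg adjustment over all genes. A difference is Scf-GFP+ minus whole marrow with limma's standard error (SE). The number of arrays limits the precision. Tested on simulated data with 200 of 19938 genes changed, this comparison's fit recovered 77.9% of log2 changes of 1.5, 85.7% of 2 and 96.1% of 3. It made 3.4 false calls per run on average. In the data themselves far more genes passed the adjusted threshold, 13.8% as higher and 13.2% as lower. The adjustment therefore acts differently there, and these shares hold for the simulated setting only.

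All members were described, and from each list up to 4 called genes per direction with the largest differences were named, with members needed to describe it. The members, lists, tests and alternatives were chosen with earlier results of these data known. Replicate numbers are shared between the groups but nothing in the labels pairs them. Promoter windows come from RefSeq, where 26 of the 34 genes had an entry.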

Additional observations from a re-analysis of the deposited data

How the results depend on the processing

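The 5 genes called higher stayed 5 under 14 of 16 alternatives, counting those with another membership: the Xist term, with Scf-GFP+ replicate 3 alone against whole marrow, replaced Fgf11 by Spry4. Without the 2-fold threshold, 8 members were called higher, with Fgf2, Fgfr3 and Fgfrl1 added. Leaving out single arrays gave 5 to 6 higher calls, and no alternative gave a lower one. Of the 73 listed pathway genes 19 to 22 were called higher and 3 to 6 lower when single arrays were left out. The share over all genes in those fits is not given here. Without the 2-fold threshold, 32 of the 73 were called higher and 9 lower, where 13.8% and 13.2% of all genes were. The lower count was thus near the share over all genes. Fgf7, Fgfr2, Fgfr1 and Spry1 were called in all 16 alternatives. A fit with the replicate number as a block also called 5 members. Correlations of same-numbered arrays' deviations from their group means were -0.06, -0.02 and 0.07. With only 3 arrays per group, such values cannot decide whether the samples were paired.

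Direction changed for 5 members near 0. Fgf4 turned to 0.13 with the Xist term, Fgf12 to 0.044 with quantile normalization and Klb to -0.016 with centred medians. Leaving out single arrays, the difference ran from -0.19 to 0.023 for Fgf4, -0.042 to 0.11 for Fgf6, -0.079 to 0.028 for Fgf12, -0.28 to 0.086 for Fgf18 and -0.056 to 0.097 for Klb, and from -0.13 to 0.29 for the listed gene Dusp6. The cause was not tested. Without the dimmest 30% of genes, 11 members were not fitted. The 95% intervals of members not called had half-widths of 0.23 to 0.95 on the log2 scale, and for Spry2, Spry4 and Fgf2 they reach past 2-fold.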
